A study of Mus musculus with 30 samples.

Results

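The carboxylesterase family was followed here as 10 genes, Ces1b, Ces1c, Ces1d, Ces1e, Ces1f, Ces1g, Ces2a, Ces2c, Ces3a and Ces3b, in mouse livers with and without hepatocyte Cebpa. The members were taken by gene symbol from a gene-level table of RSEM expected counts, an estimate that divides reads matching more than 1 gene among them. Their 10 rows were among 20 rows with a Ces symbol and 55450 gene rows in all. RNA had been sequenced from the livers of male mice backcrossed to C57BL/6N and fed HFCFD, a diet rich in fat, cholesterol and fructose. There were 3 experiments, each with 5 control mice carrying loxP-flanked Cebpa and no Cre (Cebpa fl/fl) and 5 mice of the same floxed genotype that also carried a Cre, 30 libraries in 6 groups. In HFCFD2W the Cre was driven constitutively by the albumin promoter (Cebpa ΔHep) and the diet lasted 2 weeks, with no tamoxifen. In HFCFD8W+T10D a tamoxifen-dependent Cre under the albumin promoter (Cebpa ΔHep,ERT2) was used, and both genotypes ate the diet for 8 weeks and received tamoxifen during the last 10 days. In HFCFD12W+T10W the same inducible line was used, and both genotypes ate the diet for 22 weeks in all, 12 weeks before tamoxifen and 10 weeks with it. Age was not given in the labels. Cre line, length of diet and tamoxifen all differed between HFCFD2W and the other 2 experiments and cannot be told apart there. Between HFCFD8W+T10D and HFCFD12W+T10W the Cre line was the same, and length of diet and length of tamoxifen cannot be told apart.

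Carboxylesterases are serine hydrolases that cleave ester, thioester and amide bonds, and most of the liver forms are held in the endoplasmic reticulum. They hydrolyse drugs and other xenobiotics as well as endogenous lipids, among them triacylglycerol and cholesteryl esters. In the mouse the family has expanded by tandem duplication into several genes per subfamily, so that neighbouring genes often resemble each other closely. Ces1c is the carboxylesterase secreted into mouse plasma. Ces1d, also known as triacylglycerol hydrolase, takes part in the assembly of very low-density lipoproteins, and Ces1f and Ces1g are also implicated in hepatic lipid handling. Ces1e, known as egasyn, holds beta-glucuronidase in the endoplasmic reticulum. Cebpa encodes C/EBPα, a transcription factor of differentiated hepatocytes that binds palindromic sites with a TTGCNNAA core.

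All 20 Ces genes lay on chromosome 8 in the GENCODE M21 annotation of GRCm38. The Ces1 members formed 1 block on the minus strand, chr8:93020214-93379725, with 8 Ces rows and 0 other protein-coding genes inside it. The Ces2 and Ces3 members formed a second block on the plus strand, chr8:104734003-105093929, with 10 Ces rows and again 0 other protein-coding genes. Coding sequences of the members ran from 1662 bases (Ces1c) to 1713 bases (Ces3a and Ces3b). Identity between coding sequences was 95.3% for Ces3a and Ces3b, 91.1% for Ces1b and Ces1c and 83.0% for Ces2a and Ces2c. The 15 pairs of Ces1 members ranged from 74.5% to 91.1% with a median of 78.4%, and the 28 pairs from different subfamilies ranged from 62.3% to 67.4%.

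**Figure D1:**
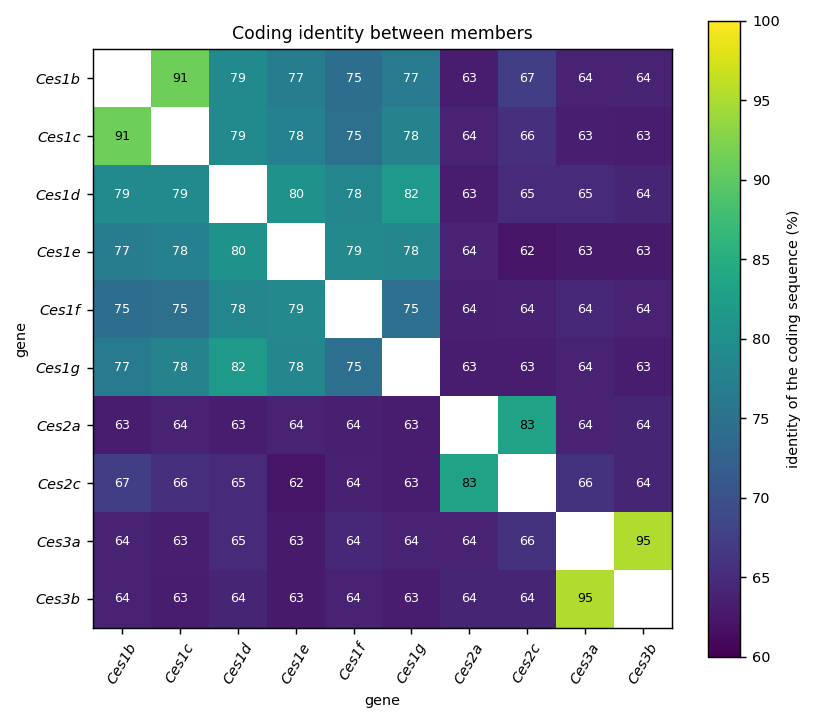
Percent identity of aligned coding sequences for each pair of the 10 members, as a grid with members on both axes and identity as colour and number. The pairs Ces3a and Ces3b (95.3%) and Ces1b and Ces1c (91.1%) stand above every other pair.

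The longest stretches that 2 members share exactly show why their reads can be hard to assign. Both are given 5′ to 3′ in lower case, with nothing marked, because a read lying inside either one fits both genes equally. The first is 194 coding bases of Ces3a (exons 4 and 5, chr8:105050560-105050615 and chr8:105051468-105051605) that recur in Ces3b (exons 4 and 5, chr8:105085634-105085689 and chr8:105086558-105086695), all on the plus strand. The second is 118 coding bases of Ces1b (exon 14, chr8:93056906-93057023) that recur in Ces1c (exon 13, chr8:93099184-93099301), on the minus strand.
Ces3a and Ces3b: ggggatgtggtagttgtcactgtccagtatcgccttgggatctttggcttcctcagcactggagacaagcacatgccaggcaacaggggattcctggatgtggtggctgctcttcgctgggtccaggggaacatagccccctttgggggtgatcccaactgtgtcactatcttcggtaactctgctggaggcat
Ces1b and Ces1c: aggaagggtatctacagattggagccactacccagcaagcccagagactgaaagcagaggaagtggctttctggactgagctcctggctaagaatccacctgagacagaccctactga

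Over whole transcripts, 30.9% of all 50-base windows of Ces3a were found in another Ces transcript, all of them in Ces3b. The share was 26.1% in Ces3b, 13.4% in Ces1c and 10.8% in Ces1b. Ces2c had the highest share, 40.2%, and nearly all of it was shared with the pseudogene Ces2d-ps, which held only 4 expected counts over the 30 libraries. Ces1d, Ces1f, Ces1g and Ces2a shared between 0.533% and 2.35% of windows and Ces1e shared 3.21%. Expected counts that were not whole numbers, the mark of reads divided among genes, occurred in 30 of 30 libraries for Ces1b, in 29 for each of Ces1c, Ces3a and Ces3b, in 21 for Ces1e and in 16 for Ces2c. They occurred in 5 libraries for Ces1g, 4 for Ces2a, 1 for Ces1f and 0 for Ces1d. The split between Ces3a and Ces3b and between Ces1b and Ces1c therefore rests partly on the estimate, and so do the counts of Ces1e and Ces2c. The values of these members below are uncertain to that extent. Ces2c had the highest share of windows yet whole counts in some libraries, so whole counts do not show that no read was shared.

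Promoter sequences from RefSeq (GRCm38.p6) matched 7 of the 10 members in 8 windows, as Ces1b has 2 start sites. Ces1d, Ces1f and Ces3a had no entry. The 250 bases upstream of the start are shown for 4 members, chosen with their values known because they differed in their response to genotype, in lower case with the C/EBP core TTGCNNAA, on either strand, in capitals.
Ces1c (chr8:93131284-93131533, minus strand): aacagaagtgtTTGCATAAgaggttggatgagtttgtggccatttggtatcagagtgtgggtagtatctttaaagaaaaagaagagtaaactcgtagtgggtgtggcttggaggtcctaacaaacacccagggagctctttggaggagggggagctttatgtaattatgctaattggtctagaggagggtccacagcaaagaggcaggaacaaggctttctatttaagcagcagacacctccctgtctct
Ces2a (chr8:104733753-104734002, plus strand): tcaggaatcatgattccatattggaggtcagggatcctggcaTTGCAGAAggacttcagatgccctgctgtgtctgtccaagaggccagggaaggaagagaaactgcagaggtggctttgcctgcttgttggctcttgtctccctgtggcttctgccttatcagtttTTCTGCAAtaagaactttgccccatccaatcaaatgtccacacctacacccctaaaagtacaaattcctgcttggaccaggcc
Ces1g (chr8:93337210-93337459, minus strand): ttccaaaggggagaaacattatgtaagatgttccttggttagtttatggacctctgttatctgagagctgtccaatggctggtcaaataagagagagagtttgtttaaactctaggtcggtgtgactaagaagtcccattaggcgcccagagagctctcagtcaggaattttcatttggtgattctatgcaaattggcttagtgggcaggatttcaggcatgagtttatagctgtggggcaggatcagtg
Ces3b (chr8:105083505-105083754, plus strand): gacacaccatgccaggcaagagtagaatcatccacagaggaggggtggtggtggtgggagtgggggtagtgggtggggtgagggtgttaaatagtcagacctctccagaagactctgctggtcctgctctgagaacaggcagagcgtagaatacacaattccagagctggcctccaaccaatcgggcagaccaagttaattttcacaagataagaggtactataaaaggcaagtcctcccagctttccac

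Within the 300-base promoter windows, the core letters were present in 4 of the 8 member windows, both of Ces1b and those of Ces1c and Ces2a, and in 10.8% of 32851 RefSeq promoters. The Ces1b windows overlap and hold the same site, at -213 from 1 start and -136 from the other. Its letters, TTGCATAA, are also those of the Ces1c match, so these windows are not independent cases. Ces1c had 1 match at -239 from the start and Ces2a had 2, at -208 and -83. The Ces1g and Ces3b windows held 0. The letters CCAAT (or ATTGG) were present in 7 of 8 member windows, all but that of Ces1e, and in 37.4% of all promoters. CAAAGTCCA, a form of the HNF4 element, and the consensus HNF1 element were in 0 of 8 member windows and in 0.475% and 0.399% of all promoters. All 4 motifs were searched on both strands, and a CCAAT match can overlap a core match. Ces1b and Ces1c promoters were 93.4% and 95.4% identical over the aligned bases, and those of Ces2a and Ces2c 69.1%. A match describes these letters only and is no evidence of binding.

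Library totals ranged from 7996128 to 10257366 expected counts, and the lowest count of any member in any library was 75 (Ces3b). Levels below are counts relative to library size (CPM), scaled by the TMM method over all 30 libraries, as mean ± SD of 5 mice per group. Single mice are given in the order of their label numbers, 1 to 5, or 2 to 6 for the HFCFD2W knockouts. Cebpa itself fell from 177 ± 17.7 to 4.74 ± 0.903 CPM in HFCFD2W, from 144 ± 13.4 to 17.2 ± 5.93 CPM in HFCFD8W+T10D and from 114 ± 23.04 to 21.3 ± 1.97 CPM in HFCFD12W+T10W, leaving 2.68%, 11.9% and 18.6%. In each experiment every knockout mouse was below every control mouse (p = 0.00794 by an exact, two-sided permutation of genotypes, the lowest value that 5 against 5 mice can reach). Hepatocyte markers were abundant throughout. The summed level of 10 hepatocyte markers had a median of 121807 CPM in HFCFD12W+T10W controls and 81753 CPM in the knockouts, and 4 of the 10 were lower and 0 higher in the knockouts there. In HFCFD8W+T10D the medians were 154999 and 103092 CPM with 2 markers lower and 1 higher, and in HFCFD2W 144411 and 176974 CPM with 0 of 10 passing the test. In the same HFCFD12W+T10W comparison 8 of 8 cholangiocyte markers and 8 of 8 stellate cell markers were higher, the summed medians going from 62.4 to 768 CPM and from 334 to 1071 CPM. Most of the cholangiocyte sum was Spp1, the osteopontin gene, at a mean of 46.02 CPM in controls and 801 CPM in knockouts, and the other 7 markers together went from 12.01 to 65.9 CPM (medians). For HFCFD8W+T10D, 4 of 7 tested cholangiocyte markers and 2 of 8 stellate cell markers were higher, with summed medians of 55.7 and 297 CPM (16.5 and 22.8 CPM without Spp1) and of 486 and 554 CPM. In HFCFD2W 1 of 3 tested cholangiocyte markers was higher, Spp1 itself (summed medians 48.4 and 580 CPM, and 14.8 and 14.2 CPM without Spp1), and 0 of 8 stellate cell markers passed the test. Of 8 macrophage markers, 3 of 7 tested, 5 and 5 were higher in the 3 experiments, with 1 lower in HFCFD12W+T10W. Endothelial markers gave 0, 1 and 2 of 6 lower and lymphocyte markers 0 of 2, 1 of 3 and 4 of 4 tested higher. Adipoq and Plin1 of adipocytes, Cdx2 of intestine and Prss2 and Pnlip of pancreas had 0 counts in every group. Other markers of these lists were detected. The 5 intestine markers summed to 61.9 to 135 CPM and the 6 pancreas markers to 9.30 to 36.3 CPM. Cfd, the 1 adipocyte marker with counts, reached 40.8 CPM in HFCFD8W+T10D controls. It was lower in the HFCFD8W+T10D and HFCFD12W+T10W knockouts (log2 fold change -4.23 and -4.74). In both of these experiments 1 intestine marker was higher, and in HFCFD12W+T10W 1 pancreas marker was lower. The part of these markers in the differences below was not tested. In whole liver, fewer cells of a type and less RNA per cell cannot be told apart.

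The TMM factor mattered for these libraries. Its ratio of scaled to unscaled total had a median of 0.980 in HFCFD12W+T10W controls and 1.31 in the knockouts, so the level of a gene with an unchanged share of the library reads lower in the knockouts after scaling. Scaling by library total alone moved the median of all genes by 0.02, 0.18 and 0.37 log2 units in the 3 experiments, in order. Of the genes passing an adjusted p under 0.05, 51.5%, 59.99% and 53.5% were higher in the knockouts after TMM scaling, 57.7%, 84.1% and 88.0% after scaling by total, and 76.1%, 80.4% and 86.9% in limma fits to log2(TPM + 1). The decreases reported below are therefore relative to the TMM-scaled median gene.

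Per unit of transcript length (TPM), Ces3a and Ces1c were the leading members in HFCFD2W controls, at 1454 ± 149 and 1432 ± 90.7 TPM (SD, n = 5). Their ranges overlapped, and Ces1c held 34.8% and Ces3a 35.3% of the TPM of the 10 members. Ces3b, Ces1f, Ces1d, Ces1g, Ces1e and Ces2a followed between 237 and 138 TPM, each overlapping the next. Ces2c at 63.3 ± 15.4 TPM and Ces1b at 22.8 ± 4.04 TPM were lowest, without overlap with their neighbours. In HFCFD8W+T10D controls Ces1c led alone at 1720.1 ± 179.8 TPM, with Ces3a at 1061 ± 176 and Ces1d at 915 ± 84.0 TPM next and overlapping each other. The order at the top was the same in HFCFD12W+T10W controls, with Ces1c at 2001 ± 254, Ces3a at 987 ± 282 and Ces1d at 986 ± 224 TPM. In the knockouts of HFCFD8W+T10D Ces1c reached 2645 ± 321 TPM and 52.6% ± 2.898 of the members' TPM, against 38.0% ± 3.77 in controls. Ces1g held 10.4% ± 0.992 there, against 4.20% ± 0.789. In HFCFD12W+T10W knockouts Ces1c held 47.5% ± 1.80, against 39.7% ± 2.54 in controls, and Ces3b, at 12.5 TPM, was lowest of all. Shares within the family do not depend on the scaling factor.

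**Figure D2:**
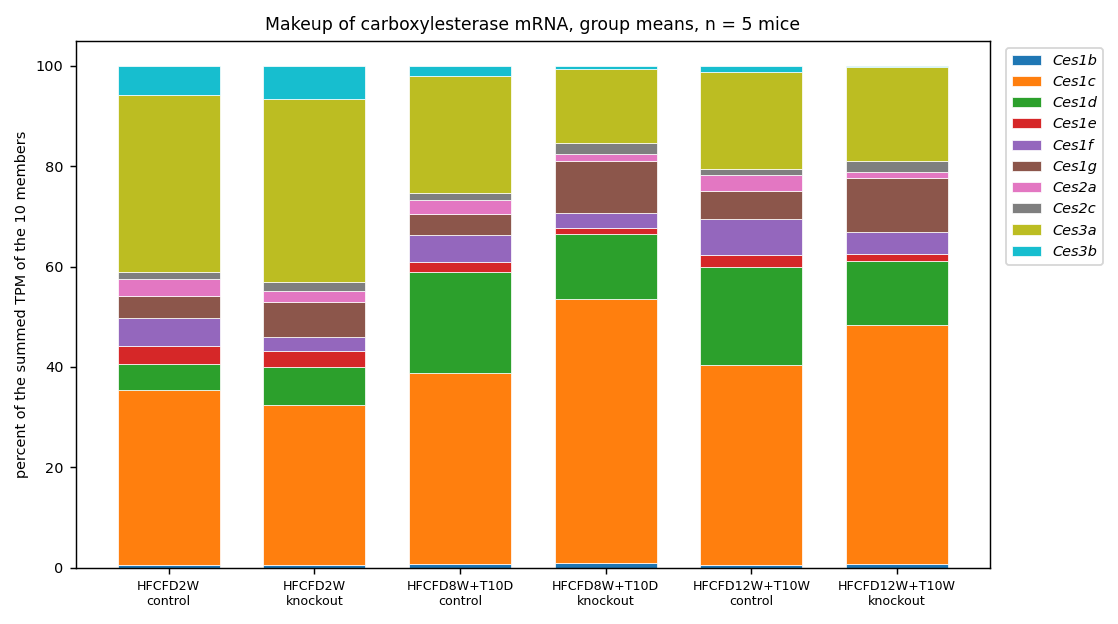
Mean share of each member in the summed TPM of the 10 members (percent, vertical axis) in each of the 6 groups, as stacked bars of 5 mice each. Ces1c and Ces3a fill 34.8% and 35.3% of the bar in HFCFD2W controls, and Ces1c fills 52.6% in HFCFD8W+T10D knockouts.

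Between genotypes the members differed in both directions. In HFCFD2W Ces1g and Ces1d were higher and Ces1f and Ces2a lower in the knockouts, 4 of 10 members, at an adjusted p under 0.05 (edgeR quasi-likelihood F test, Benjamini-Hochberg adjustment). Of 11068 genes tested there, 16.7% passed, 8.6% higher and 8.09% lower. In HFCFD8W+T10D Ces1g was higher and Ces1e, Ces1f and Ces3b lower, also 4 of 10, against 17.1% of 11990 genes (10.3% higher and 6.85% lower). In HFCFD12W+T10W 7 of 10 were lower (Ces1c, Ces1d, Ces1e, Ces1f, Ces2a, Ces3a and Ces3b) and 0 higher, against 51.1% of 12463 genes in either direction, 23.8% lower and 27.4% higher. With scaling by library total, 5 of them stayed lower there, Ces1c and Ces3a no longer passed (Ces1c with the opposite sign), and Ces1g and Ces2c passed as higher. Over all 12463 genes that scaling called 962 lower and 7049 higher. Differences past 2-fold numbered 0, 2 and 5, against 3.07%, 6.1% and 17.7% of all genes. The median log2 fold change of the members was 0.16, -0.65 and -0.96, beside 0.01 for all genes in each experiment. Groups did not overlap for 2, 3 and 6 members, in that order of experiments. Over all genes these shares, for higher and lower knockouts, were 6.33% and 6.13%, then 6.01% and 5.5%, then 19.6% and 19.5%. The members' summed CPM was 117% of control in HFCFD2W and 97.6% in HFCFD8W+T10D, with overlapping groups, and 63.4% in HFCFD12W+T10W, with every knockout below every control. That separation depends on the scaling. Of unscaled counts the members held a mean of 0.721% in HFCFD12W+T10W controls and 0.609% in the knockouts, with overlapping groups. Their summed TPM there averaged 5031 and 4228, also with overlap.

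**Figure D3:**
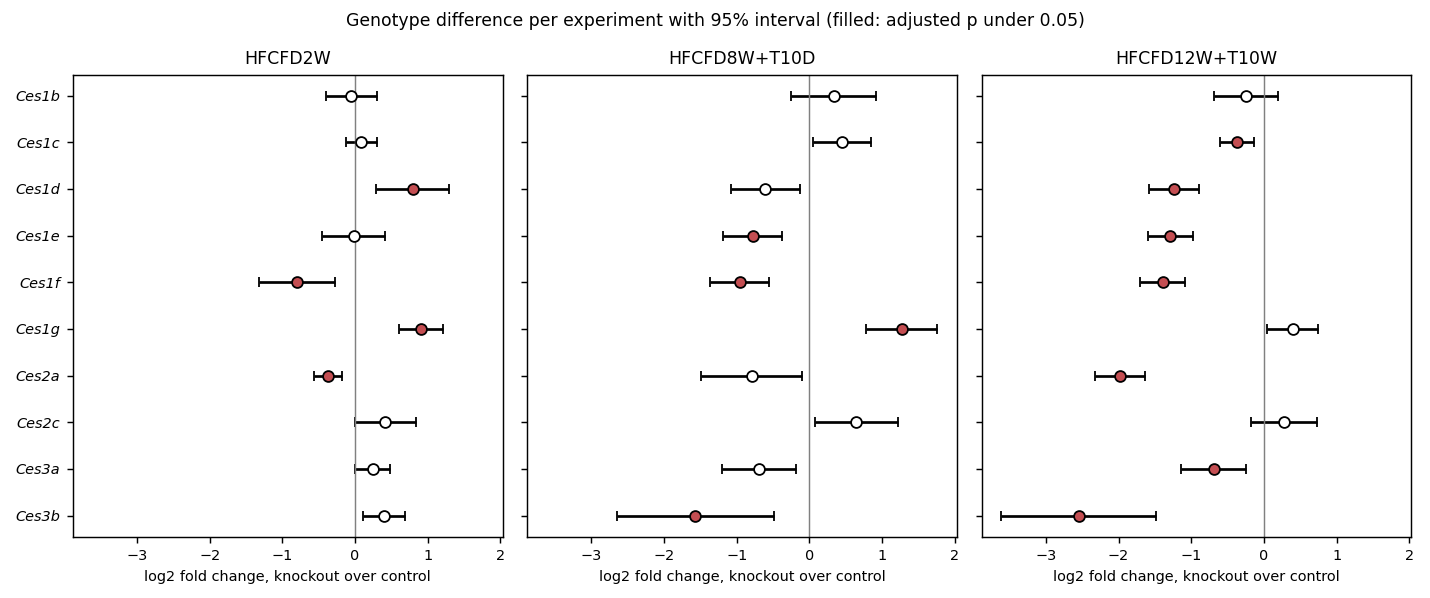
Log2 fold change, knockout over control, of each member in the 3 experiments (horizontal axis) with its 95% confidence interval as a bar. Ces1g lies to the right of 0 in all 3 experiments, and Ces3b moves from 0.40 through -1.57 to -2.55.

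In HFCFD8W+T10D the knockout mouse 4 was the highest of its group for all 10 members by CPM and for 6 by TPM, and its members summed to 10695 CPM against 4917 to 7082 CPM in the other 4 knockouts. Its ratio of scaled to unscaled total was 0.902, below the 1.05 to 1.27 of the others, and the part of that ratio in its high levels was not tested. Without it 7 members passed the threshold there, 6 lower and 1 higher, against 2456 of 12185 genes, 970 lower and 1486 higher. One fit of all 30 libraries called 8 members in HFCFD8W+T10D, 6 lower and 2 higher, against 27.1% of all genes.

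The secreted plasma esterase Ces1c had the highest level per unit length in 4 of the 6 groups. In HFCFD2W its level was 2432, 2655, 2321, 2417 and 2742 CPM in the control mice and 2457, 2192, 2935, 2626 and 3127 CPM in the Cebpa ΔHep mice. The groups overlapped widely (log2 fold change 0.09, SE 0.10, adjusted p = 0.603). In HFCFD8W+T10D control mice had 2664, 2733, 2601, 2155 and 2630.2 CPM and knockout mice 3001, 2569.7, 3205, 5037 and 3423 CPM. Its fold change there was higher on average but did not pass the threshold (log2 fold change 0.44, SE 0.18, adjusted p = 0.1195). It was called higher there with scaling by library total, in both TPM fits and in the single fit of all 30 libraries (adjusted p = 0.0177 in that fit and 0.00264 at the lowest). In HFCFD12W+T10W the values were 2549, 2302, 2950.4, 3305 and 2385 CPM in controls and 2088, 1969.8, 2087, 2095 and 1899 CPM in knockouts, every knockout below every control. Ces1c fell there (log2 fold change -0.37, SE 0.11, adjusted p = 0.01202), and DESeq2 and upper-quartile scaling called it lower as well. Scaling by library total gave a log2 fold change of 0.01 with adjusted p = 0.955, and both TPM fits also gave a value just above 0, so the direction depends on the scaling. The genotype effect was lower in HFCFD12W+T10W than in HFCFD8W+T10D (log2 difference -0.84, SE 0.19, adjusted p = 0.00604).

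Ces1b, the neighbour closest in sequence to Ces1c, had the lowest level per unit length in 4 of the 6 groups. It ranged from 24.4 to 106 CPM over the 30 libraries, and the groups overlapped in all 3 experiments. Its log2 fold changes were -0.05, 0.33 and -0.24 (adjusted p = 0.857, 0.443 and 0.339), with 95% confidence intervals from -0.40 to 0.30, from -0.25 to 0.91 and from -0.68 to 0.20.

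Ces1g, which limits hepatic lipid synthesis in mice, was the member that passed the threshold as higher in 2 experiments. In HFCFD2W it was at 432, 447, 432, 373 and 448 CPM in controls and at 615, 597, 967, 959.6 and 861 CPM in knockouts. Every knockout exceeded every control, and Ces1g rose 1.88-fold by group means (log2 fold change 0.91, SE 0.14, adjusted p = 0.000811). The HFCFD8W+T10D values were 476, 482, 247, 343 and 385 CPM in controls and 712, 668, 1051, 1362 and 832 CPM in knockouts, again without overlap (log2 fold change 1.27, SE 0.23, adjusted p = 0.002796). In HFCFD12W+T10W controls had 525, 485, 584, 291 and 565 CPM and knockouts 737, 589, 558, 665 and 577 CPM. The groups overlapped in CPM and the difference did not pass the threshold (log2 fold change 0.39, SE 0.16, adjusted p = 0.0591). It did pass without control mouse 3 or 5, with upper-quartile scaling, after scaling by library total and in both TPM fits (adjusted p down to 0.00144). By TPM the groups did not overlap, at 156 to 321 TPM in controls and 396 to 530 TPM in knockouts. The genotype effect on Ces1g was smaller in HFCFD12W+T10W than in HFCFD8W+T10D (log2 difference -0.91, SE 0.28, adjusted p = 0.0323), a call that was lost with upper-quartile scaling.

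Ces1d, the triacylglycerol hydrolase, rose in HFCFD2W and fell in HFCFD12W+T10W. Its HFCFD2W levels were 407, 414, 507, 368 and 344 CPM in controls and 367, 547, 644, 939 and 1038 CPM in knockouts. It rose on average (log2 fold change 0.79, SE 0.23, adjusted p = 0.0336), but the groups overlapped and the call was lost without control mouse 1, 2, 4 or 5 or knockout mouse 5 or 6 (adjusted p up to 0.0844). In HFCFD8W+T10D controls were at 1669, 1614, 1311, 1434 and 1527 CPM and knockouts at 741, 591, 992, 1570.3 and 1014 CPM. Knockout mouse 4 lay among the controls and the difference did not pass the threshold (log2 fold change -0.61, SE 0.22, adjusted p = 0.0756), while without that mouse adjusted p was 0.00546. DESeq2, both TPM fits and the single fit of all libraries called it lower (adjusted p down to 0.0330). In HFCFD12W+T10W the levels were 1316, 963, 1814, 1495 and 1767 CPM in controls and 541, 569.7, 567, 725 and 635 CPM in knockouts, without overlap. Ces1d fell to 41.3% of control there (log2 fold change -1.23, SE 0.16, adjusted p = 4.14e-05). The genotype effect differed from that in HFCFD2W by -1.42, SE 0.32, adjusted p = 0.00404 (log2) in HFCFD8W+T10D and by -2.07, SE 0.32, adjusted p = 2.87e-05 in HFCFD12W+T10W. Counts of Ces1d were whole in 30 of 30 libraries.

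Ces1f, another Ces1 enzyme implicated in triacylglycerol turnover, was the one member that passed the threshold as lower in all 3 experiments. Ces2a was lower in all 3 as well but missed the threshold in HFCFD8W+T10D (adjusted p = 0.111 by the edgeR test). In HFCFD2W the levels of Ces1f were 387, 476, 425, 328 and 409 CPM in controls and 135, 163, 188, 380.2 and 296 CPM in knockouts. The groups overlapped (log2 fold change -0.80, SE 0.24, adjusted p = 0.0384), and the call was lost without control mouse 1, 2, 3 or 5 or knockout mouse 2, 3 or 4 (adjusted p up to 0.0861), and in both limma fits to TPM. The HFCFD8W+T10D levels were 433, 498, 335, 366 and 331 CPM in controls and 177, 132, 221, 283 and 189 CPM in knockouts, every knockout lower (log2 fold change -0.96, SE 0.19, adjusted p = 0.004997). In HFCFD12W+T10W controls had 532, 448, 519.6, 644 and 454 CPM and knockouts 210.4, 142, 227, 213 and 167 CPM. These groups did not overlap either, and Ces1f fell to 36.9% of control (log2 fold change -1.39, SE 0.14, adjusted p = 6.23e-06). The genotype effects of Ces1f did not differ between experiments at the threshold, the largest contrast being -0.64, SE 0.30, adjusted p = 0.1096 (log2, HFCFD12W+T10W minus HFCFD2W).

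Ces1e, the egasyn gene, fell in the tamoxifen experiments. In HFCFD2W controls had 249, 364, 268, 256 and 354 CPM and knockouts 202, 193, 319.8, 408 and 348 CPM, with full overlap (log2 fold change -0.02, SE 0.20, adjusted p = 0.967). In HFCFD8W+T10D the levels were 138, 190.3, 121, 127 and 125 CPM in controls and 74.1, 53.1, 88.5, 116 and 71.8 CPM in knockouts. All knockouts were lower than all controls (log2 fold change -0.78, SE 0.19, adjusted p = 0.0134). Levels in HFCFD12W+T10W were 199.6, 152, 179, 161 and 161 CPM in controls and 62.7, 52.4, 83.8, 84.7 and 55.6 CPM in knockouts. Ces1e fell to 39.8% of control there, again without overlap (log2 fold change -1.29, SE 0.14, adjusted p = 1.12e-05). The genotype effect in HFCFD12W+T10W differed from that in HFCFD2W by -1.31, SE 0.28, adjusted p = 0.000855 (log2).

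In the Ces2 subfamily, Ces2a and Ces2c, both of which act on acylglycerols and xenobiotic esters, differed. Ces2a was at 241, 262, 257, 281 and 264 CPM in HFCFD2W controls and at 207, 157, 209, 209 and 223 CPM in the knockouts. All knockouts were lower, by a small margin (log2 fold change -0.38, SE 0.09, adjusted p = 0.0141), and the call was lost in limma fits to TPM and in the single fit of all libraries (adjusted p up to 0.3301). In HFCFD8W+T10D controls had 200.1, 220.4, 219, 149.7 and 179 CPM and knockouts 68.6, 40.7, 111, 207 and 128 CPM. Knockout mouse 4 lay inside the range of the controls, and the difference did not pass the threshold (log2 fold change -0.79, SE 0.32, adjusted p = 0.111). Without it adjusted p was 0.0119, and the single fit of all libraries called Ces2a lower (adjusted p = 0.0132). In HFCFD12W+T10W Ces2a was at 242, 204, 263, 205 and 221 CPM in controls and at 51.8, 42.9, 72.97, 69.8 and 42.2 CPM in knockouts, and fell to 24.6% of control (log2 fold change -1.98, SE 0.16, adjusted p = 1.17e-06). The genotype effect in HFCFD12W+T10W differed from that in HFCFD2W by -1.64, SE 0.34, adjusted p = 0.000595 (log2) and from that in HFCFD8W+T10D by -1.22, SE 0.34, adjusted p = 0.0208.

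Ces2c passed the threshold in none of the 3 experiments by the edgeR test. Its group means went from 121 ± 31.5 to 162 ± 43.5 CPM in HFCFD2W, from 101 ± 25.1 to 157 ± 63.97 CPM in HFCFD8W+T10D and from 85.7 ± 30.8 to 100.5 ± 15.03 CPM in HFCFD12W+T10W. On the log2 scale these differences were 0.42, 0.65 and 0.28, with adjusted p = 0.168, 0.112 and 0.289 and unadjusted p = 0.0537, 0.0289 and 0.207. DESeq2 also made no call for it. Scaling by library total and the limma fits to TPM called it higher in both HFCFD8W+T10D and HFCFD12W+T10W, and it also passed in HFCFD8W+T10D without knockout mouse 1 (adjusted p = 0.0267). The lowest adjusted p under those settings was 0.0222 in HFCFD8W+T10D and 0.0177 in HFCFD12W+T10W.

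Ces3a and Ces3b, the near-identical pair of the Ces3 subfamily, differed in how far they moved. Ces3a was at 3050.4, 2612, 2459.9, 3386 and 2673 CPM in HFCFD2W controls and 3520.1, 3235, 3833, 2639 and 3518 CPM in the knockouts (log2 fold change 0.24, SE 0.11, adjusted p = 0.163). The HFCFD8W+T10D levels were 1902, 2427, 1614, 1784 and 1176 CPM in controls and 939, 678, 1139, 1648 and 1034 CPM in knockouts (log2 fold change -0.70, SE 0.23, adjusted p = 0.0584). The difference passed the threshold in neither, and the groups overlapped in both. In HFCFD8W+T10D it passed without knockout mouse 4 or control mouse 5 (adjusted p down to 0.0115), and also with DESeq2, scaling by library total, both TPM fits and the single fit of all libraries (down to 0.0126). In HFCFD2W both TPM fits called Ces3a higher (down to 0.0339). In HFCFD12W+T10W controls had 1952, 1399, 1321, 1876 and 858 CPM and knockouts 847, 821, 1171, 946 and 661 CPM. Ces3a fell there with overlapping groups (log2 fold change -0.69, SE 0.21, adjusted p = 0.0143), and after scaling by library total or in the TPM fits the call was lost (adjusted p up to 0.254). The genotype effect differed from that in HFCFD2W by -0.95, SE 0.30, adjusted p = 0.0366 (log2) in HFCFD8W+T10D and by -0.98, SE 0.30, adjusted p = 0.0135 in HFCFD12W+T10W.

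Ces3b had the largest fold change among the members in HFCFD8W+T10D and in HFCFD12W+T10W. In HFCFD2W it was at 519, 485, 483, 749 and 487 CPM in controls and at 817, 759, 748, 555 and 711 CPM in knockouts, with overlap through the high control mouse 4 (log2 fold change 0.40, SE 0.13, adjusted p = 0.0554). It passed the threshold without that mouse or without knockout mouse 5, the lowest knockout (adjusted p down to 0.00573), and also with DESeq2, scaling by library total and both TPM fits (down to 0.0222). The HFCFD8W+T10D levels were 141, 204, 245, 190.2 and 85.6 CPM in controls and 33.7, 8.47, 46.2, 121 and 81.6 CPM in knockouts. The groups overlapped (log2 fold change -1.57, SE 0.50, adjusted p = 0.0473), and the call was lost without control mouse 1, 2, 3 or 4 or knockout mouse 1 or 3 (adjusted p up to 0.108) and with DESeq2 or upper-quartile scaling (up to 0.0544). In HFCFD12W+T10W controls were at 163, 105, 51.5, 145 and 35.1 CPM and knockouts at 10.2, 6.93, 30.3, 26.5 and 8.82 CPM. Ces3b fell to 16.5% of control there without overlap (log2 fold change -2.55, SE 0.49, adjusted p = 0.000844). The genotype effect differed from that in HFCFD2W by -1.98, SE 0.64, adjusted p = 0.0435 (log2) in HFCFD8W+T10D and by -2.99, SE 0.66, adjusted p = 0.00106 in HFCFD12W+T10W. The sum of Ces3a and Ces3b, which does not rest on how shared reads were divided between them, was 120.3%, 58.6% and 57.3% of control in the 3 experiments in order, with overlapping groups in each.

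**Figure D4:**
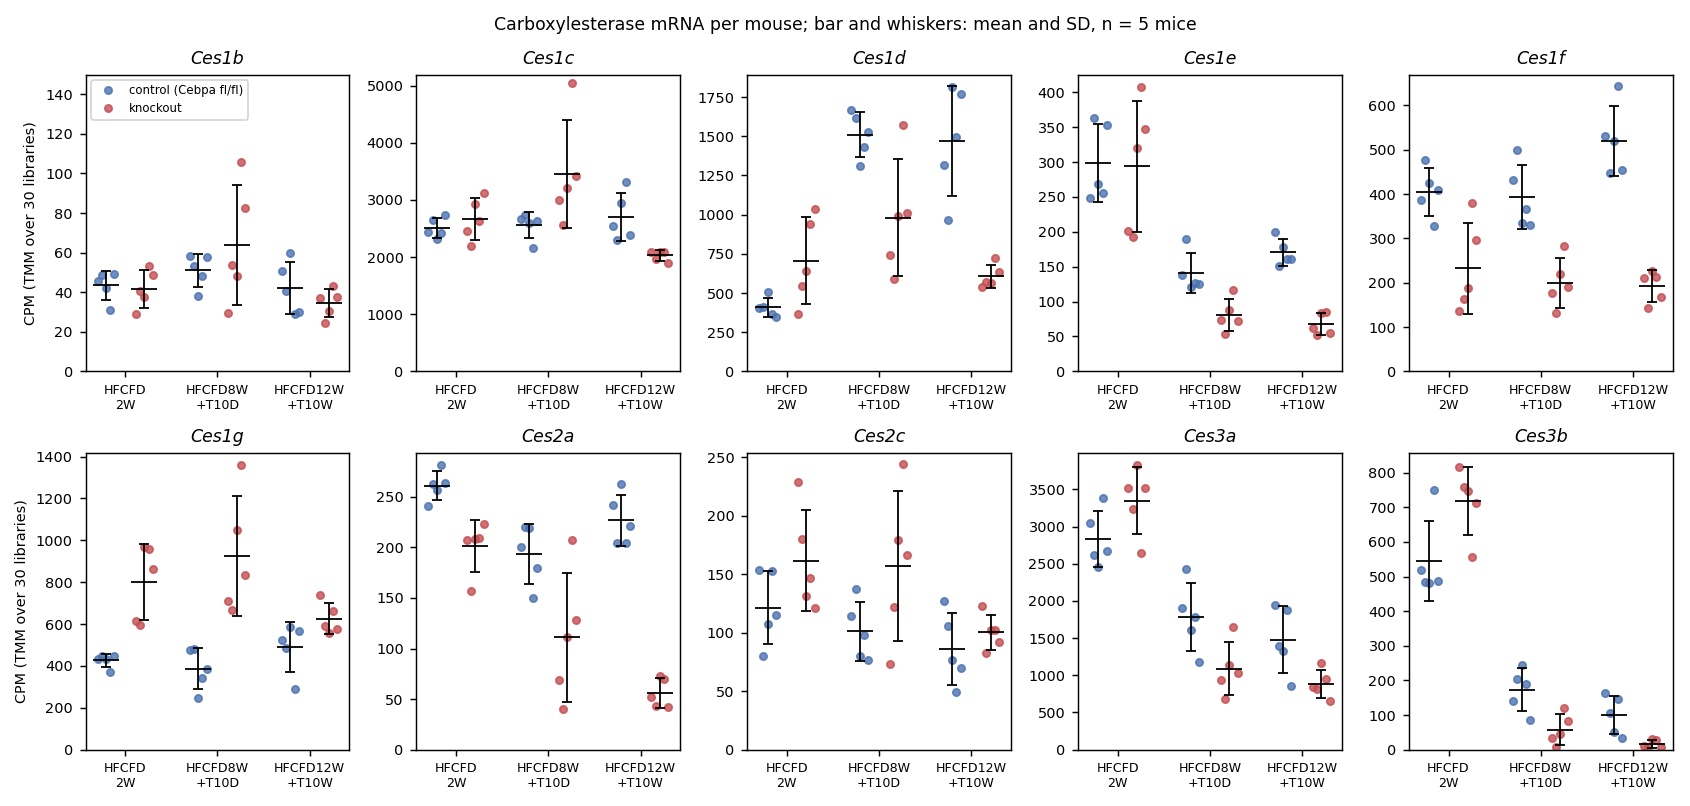
TMM-scaled CPM of each member in every mouse (vertical axis, one panel per gene), with 5 mice per group as points and the group mean as a line, for control and knockout in the 3 experiments. Ces1g is higher in knockouts without overlap in HFCFD2W and HFCFD8W+T10D. Ces3b averages 544.4 CPM in controls and 717.9 CPM in knockouts of HFCFD2W, and 100.1 and 16.6 CPM in those of HFCFD12W+T10W.

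Tests of the difference between genotype effects, from 1 fit of all 30 libraries and 12964 genes, gave 3 members between HFCFD8W+T10D and HFCFD2W (Ces1d, Ces3a and Ces3b, against 11.2% of all genes, 6.79% negative), 3 between HFCFD12W+T10W and HFCFD8W+T10D (Ces1c, Ces1g and Ces2a, against 10.5%, 5.49% negative) and 6 between HFCFD12W+T10W and HFCFD2W (Ces1c, Ces1d, Ces1e, Ces2a, Ces3a and Ces3b, against 30.7%, 17.3% negative). All 12 were negative, that is, the log2 fold change was lower in the first-named experiment of each pair. These contrasts were not refitted with scaling by library total or on TPM. Scaling by total moved the median of all genes by 0.02, 0.18 and 0.37 log2 units in the 3 experiments. The part of the scaling in these differences was not tested. With 1 of the 20 mice left out at a time, the call between HFCFD8W+T10D and HFCFD2W was lost in 11 fits for Ces3a and 14 for Ces3b (adjusted p = 0.00718 to 0.0733 and 0.0108 to 0.0785). Between HFCFD12W+T10W and HFCFD8W+T10D it was lost in 12 fits for Ces1g and, for Ces2a, without knockout mouse 4 of HFCFD8W+T10D (adjusted p = 0.0612). Between HFCFD12W+T10W and HFCFD2W it was lost in 15 fits for Ces1c (adjusted p = 0.0289 to 0.131), and also with upper-quartile scaling and without the low-count filter. The mice of each experiment enter more than 1 of these contrasts.

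Control livers also differed between experiments. Mouse line, diet length and tamoxifen cannot be told apart in the contrasts with HFCFD2W, nor diet length and length of tamoxifen in the other. Age and batch were not given in the labels and cannot be told apart from these. In HFCFD8W+T10D controls Ces1d was higher than in HFCFD2W controls (log2 difference 1.89, SE 0.23, adjusted p = 3.24e-07), while Ces1e (-1.09, SE 0.20, adjusted p = 7.47e-05), Ces3a (-0.67, SE 0.21, adjusted p = 0.0111) and Ces3b (-1.65, SE 0.46, adjusted p = 0.00462) were lower, 4 of 10 members against 43.6% of all genes. The same 4 members passed between HFCFD12W+T10W and HFCFD2W controls, in the same directions (Ces1d 1.85, SE 0.23, adjusted p = 7.88e-07, Ces1e -0.81, SE 0.20, adjusted p = 0.00209, Ces3a -0.94, SE 0.21, adjusted p = 0.000932 and Ces3b -2.44, SE 0.47, adjusted p = 0.000197), against 39.1% of genes. These contrasts share the HFCFD2W controls. Between HFCFD12W+T10W and HFCFD8W+T10D controls 0 of 10 members passed by edgeR, 0 also at an unadjusted p under 0.05, against 11.4% of genes, and the lowest adjusted p was 0.233 for Ces1f.

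The other 10 Ces genes were mostly silent. Ces5a had 0 counts in all 30 libraries, and Ces1h, Ces2f and Ces2d-ps had between 3 and 6 counts in all. Of the 10, 4, 5 and 2 passed the low-count filter in HFCFD2W, HFCFD8W+T10D and HFCFD12W+T10W, and among these 2 were higher and 1 lower, 2 higher and 1 lower, and 1 higher and 0 lower. Ces2e, whose product is a Ces2 enzyme of liver and intestine, was lower in HFCFD2W (254 ± 28.5 to 157 ± 20.9 CPM, log2 fold change -0.70, SE 0.10, adjusted p = 0.000731). It was higher in HFCFD8W+T10D (241 ± 47.7 to 349.9 ± 75.9 CPM, log2 fold change 0.55, SE 0.17, adjusted p = 0.0427) and in HFCFD12W+T10W (206 ± 23.3 to 272 ± 27.7 CPM, log2 fold change 0.44, SE 0.09, adjusted p = 0.00178). Ces2g passed the threshold as higher in HFCFD8W+T10D (49.9 ± 7.84 to 84.8 ± 17.2 CPM, log2 fold change 0.78, SE 0.14, adjusted p = 0.003403), with log2 fold changes of 0.18 in HFCFD2W and 0.24 in HFCFD12W+T10W (adjusted p = 0.252 and 0.0537). Ces2b rose in HFCFD2W (5.97 ± 3.65 to 18.7 ± 12.7 CPM, log2 fold change 1.67, SE 0.46, adjusted p = 0.0271) and was near 1 CPM in HFCFD8W+T10D. Ces4a rose in HFCFD2W (7.72 ± 5.13 to 21.1 ± 9.93 CPM, log2 fold change 1.46, SE 0.43, adjusted p = 0.0347), with overlapping groups, and fell in HFCFD8W+T10D, where controls averaged 2.43 CPM and knockouts 0.0881 CPM, under 1 count per library (adjusted p = 0.00173). Ces1a, near 1 CPM, averaged 0.644 CPM in controls and 1.56 CPM in knockouts of HFCFD8W+T10D (log2 fold change 1.26, SE 0.42, adjusted p = 0.0563). In HFCFD12W+T10W it averaged 0.382 and 1.34 CPM, with every knockout above every control, but did not pass the low-count filter. With the Ces2 rows all added, the HFCFD12W+T10W knockouts had 85.2% of the control level with overlapping groups, beside 50.02% for Ces2a and Ces2c alone.

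Among 23 other genes of ester and lipid hydrolysis, 21 were tested in each experiment. The HFCFD2W knockouts had 2 of them higher and 2 lower, those of HFCFD8W+T10D 4 higher and 3 lower, and those of HFCFD12W+T10W 3 higher and 13 lower, with median log2 fold changes of -0.10, -0.15 and -0.37. Of all genes tested, 16.7%, 17.1% and 51.1% passed, 23.8% as lower in HFCFD12W+T10W. Scaling by library total gave 3 higher and 2 lower, 7 higher and 1 lower, and 7 higher and 7 lower, with medians of -0.08, 0.02 and 0.00182. Lpl, the lipoprotein lipase gene, was highest by fold in all 3 (log2 fold change 1.87, 2.18 and 2.33, adjusted p = 1.34e-05, 3.06e-05 and 3.41e-08), and Abhd2 rose as well (0.66, 0.94 and 0.73). Lipe, the hormone-sensitive lipase gene, rose in HFCFD8W+T10D (0.96, adjusted p = 0.000816), and Pon2 in HFCFD12W+T10W (0.23, adjusted p = 0.0225). In HFCFD2W Pon1, a secreted lactonase, fell (-0.75, adjusted p = 0.000156) and so did Nceh1 (-0.44, adjusted p = 0.009897). In HFCFD8W+T10D Abhd6 (-0.68), the monoglyceride lipase gene Mgll (-0.52) and Pnpla8 (-0.36) fell (adjusted p = 0.00147, 0.0139 and 0.0354). In HFCFD12W+T10W the largest decreases were Mgll (-1.08), Cmbl (-0.86) and Aadac (-0.84), with adjusted p = 1.30e-06, 4.74e-06 and 2.78e-05. Aadac, a microsomal deacetylase, was at -0.20 in HFCFD2W and -0.38 in HFCFD8W+T10D (adjusted p = 0.201 and 0.143). Lipc, the hepatic lipase gene, was at -0.29 and 0.33 there (adjusted p = 0.0972 and 0.209) and fell by 0.34 log2 units in HFCFD12W+T10W (adjusted p = 0.00417), less than the shift of 0.37 between the scalings there.

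Of 14 receptors and transcription factors known to act on liver metabolic genes, Cebpa included, 1 rose and 4 fell in HFCFD2W, 1 rose and 8 fell in HFCFD8W+T10D, and 1 rose and 13 fell in HFCFD12W+T10W. Of all genes tested, 8.09%, 6.85% and 23.8% were lower. The list's median log2 fold changes were -0.20, -0.41 and -0.71. With scaling by library total 4, 3 and 8 of the 14 were lower and 1 higher in each, with medians of -0.18, -0.23 and -0.34, beside 698, 382 and 962 lower genes in all against 895, 821 and 2960 with TMM. Cebpa was lowest in each (-5.23, -3.04 and -2.38). In HFCFD2W Nr1h4, the bile acid receptor FXR, fell by 0.64 log2 units and Nfe2l2 by 0.61 (adjusted p = 0.00185 and 0.00127), and Cebpb, a related factor, rose by 1.11 (adjusted p = 0.000394). Nr1i3 and Nr1i2, the xenobiotic receptors CAR and PXR, were at -0.23 and -0.08 there and did not pass the threshold (adjusted p = 0.241 and 0.461). Both fell in HFCFD8W+T10D (-1.37 and -0.61, adjusted p = 0.000121 and 0.00417) and in HFCFD12W+T10W (-1.49 and -0.72, adjusted p = 9.19e-07 and 0.000131). Hnf4a did likewise, with 0.14 (adjusted p = 0.238), -0.56 (adjusted p = 0.0104) and -0.96 (adjusted p = 2.21e-06). Nfe2l2 rose in HFCFD8W+T10D (0.56, adjusted p = 0.0228) and in HFCFD12W+T10W (0.73, adjusted p = 8.70e-06).

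The genes whose pattern over the 6 group means was closest to each member were ranked by the root mean square difference of centred log2 CPM, among 7030 genes that are not carboxylesterases. Ces1b was closest to Hikeshi (0.0477 log2 units), Ahcyl1 (0.0667) and Gm7666 (0.0823), and Ces1c to Rmdn3 (0.0775), Agtpbp1 (0.0852) and Cfb (0.0860). Ces1d was closest to Map3k13 (0.215), Galnt2 (0.254) and Fgf1 (0.264). Ces1e was closest to Hsd3b2 (0.128), Amdhd1 (0.144) and Hsd3b3 (0.193), and Ces1f to Mmd (0.101), Fam126b (0.140) and Cdo1 (0.166). Ces1g was closest to Uba7 (0.153), Psmb8 (0.191) and Mpp1 (0.196). Ces2a was closest to Csrp3 (0.133), Cyp2j5 (0.135) and Acsl1 (0.180), and Ces2c to Cdhr5 (0.0706), Chid1 (0.0799) and Aprt (0.0807). Ces3a was closest to Ttc39c (0.125), Slc22a30 (0.147) and Cyp2d10 (0.161). Ces3b had the least close neighbours of all members, Ugt2b1 (0.508), Slco1a1 (0.609) and Nudt7 (0.720). The distance is not scaled by a gene's spread, so it tends to be larger for members that vary more. Group means ran from 3.85 to 9.48 log2 CPM for Ces3b, the widest range, and from 5.10 to 5.88 for Ces1b. These are descriptions over 6 groups that share the Cre, diet and tamoxifen differences named above.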

How the data were processed

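Liver poly(A) RNA from 30 mice was sequenced with a stranded kit, as 1 library per mouse. According to the submitters' processing notes, which give no order or role, Trimmomatic 0.36, STAR 2.5.1, Picard 1.84, RSEM 1.2.22 and DESeq2 were used with the mm10 build. The authors deposited RSEM expected counts per gene, of which 11.3% of nonzero values were not whole numbers (tolerance 0.005), and TPM values of the same libraries. The deposited tables of CPM and RPKM were not used here. The table of the series and the files per library held the same counts, and 0 pairs of libraries were identical.

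Expected counts were rounded and tested within each experiment with edgeR 4.0.16 in R 4.3.3 (filterByExpr, TMM scaling, quasi-likelihood F test), knockout against control of 5 and 5 mice, with Benjamini-Hochberg adjustment over all genes tested and a threshold of 0.05. Differences between experiments came from 1 fit of 30 libraries and 12964 genes. Levels printed as CPM use the TMM factors of that joint fit, while fold changes use those of each experiment. Alternatives were DESeq2 1.42.0, limma 3.58.1 on log2 TPM, other scaling, no low-count filter, a replicate block, stricter calls, the sum of each subfamily and each mouse left out in turn. Leaving out mice in the joint fit, scaling by library total for the gene lists and the cholangiocyte sum without Spp1 were chosen after seeing the data. The test scripts were tested on simulated data. Whole transcripts of GENCODE M21 gave shared windows, and coding sequences were aligned globally.

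The members and gene lists were chosen with earlier results of these data known. All members were named, with other Ces genes of a group median of at least 1 CPM, and of the 2 pathway lists the 3 largest changes in each direction that passed per experiment plus Cebpa, Aadac, Lipc, Nr1i2, Nr1i3 and Hnf4a. Mice were taken as replicates from the labels, and libraries held 7996128 to 10257366 counts.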

Additional observations from a re-analysis of the deposited data

Results flagged for a closer look

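Over 60 groups of 5 mice (10 members in 6 groups), 5 held a mouse far from the others by Dixon's criterion, which chance alone gives in about 1 of 20 groups. In HFCFD8W+T10D controls, Ces1c was 2155 CPM in mouse 4, with the nearest mouse at 2601 CPM, and Ces1e was 190.3 CPM in mouse 2, with the nearest at 138 CPM. In HFCFD2W controls, mouse 4 had 373 CPM of Ces1g (nearest 432 CPM) and 749 CPM of Ces3b (nearest 519 CPM). In HFCFD2W knockouts, mouse 3 had 157 CPM of Ces2a (nearest 207 CPM).

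The effect of genotype differed between experiments for 12 gene and contrast pairs, by a test of the difference itself in the fit of 30 libraries. Between HFCFD8W+T10D and HFCFD2W the log2 differences were -1.42 for Ces1d, -0.95 for Ces3a and -1.98 for Ces3b. Between HFCFD12W+T10W and HFCFD8W+T10D they were -0.84 for Ces1c, -0.91 for Ces1g and -1.22 for Ces2a. Between HFCFD12W+T10W and HFCFD2W they were -0.50 for Ces1c, -2.07 for Ces1d, -1.31 for Ces1e, -1.64 for Ces2a, -0.98 for Ces3a and -2.99 for Ces3b. Cre line, diet and tamoxifen cannot be told apart in the contrasts with HFCFD2W, and length of diet and of tamoxifen in the other. None of these differences was refitted with scaling by library total or on TPM. The Ces1c difference of -0.50 was lost with upper-quartile scaling, without the low-count filter and with the block (adjusted p up to 0.209), and the Ces1g difference of -0.91 with upper-quartile scaling and with the block (up to 0.125).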

How the results depend on the processing

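Of 400 single-gene values under other settings, 335 kept their direction and side of the threshold, 20 lost the call, 30 gained one and 15 changed sign. With 1 mouse left out, these numbers were 991, 72, 13 and 24 of 1100. The number of members called in HFCFD2W was 4, against 2 with the replicate block, 0 with a fold over 2, 1 at an adjusted p under 0.01 and 2 to 4 with 1 mouse left out (2 without control mouse 1, 2 or 5). In HFCFD8W+T10D it was 4, against 7 with library totals, 8 with either TPM fit, 8 with one fit of all libraries, 2 with a fold over 2, 2 at an adjusted p under 0.01 and 3 to 7 with 1 mouse left out (7 without knockout mouse 4). In HFCFD12W+T10W it was 7, against 5 with a fold over 2 and 7 to 8 with 1 mouse left out. Ces1c and Ces3a (adjusted p = 0.0120 and 0.0143 by edgeR) did not pass there at an adjusted p under 0.01. The members called there with library totals were not all the same, as given above. Members with a different genotype effect between HFCFD8W+T10D and HFCFD2W numbered 3, against 1 with the block, 1 at an adjusted p under 0.01 and 1 to 4 with 1 mouse left out. Between HFCFD12W+T10W and HFCFD8W+T10D they numbered 3, against 1 with the block, 1 at an adjusted p under 0.01 and 1 to 3 with 1 mouse left out (1 without knockout mouse 4 of HFCFD8W+T10D). Over all genes, the block called 724 in HFCFD2W against 1847, and in HFCFD8W+T10D one fit of all libraries called 3517 and limma on log2(TPM + 1) 1313, or 1319 with a pseudocount of 0.1, against 2052. Library totals called 2405 genes there, and the fit without knockout mouse 4 called 2456. The causes were not tested.

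Signs changed as follows. In HFCFD2W, limma on TPM gave log2 fold changes of 0.0477 and 0.0494 for Ces1b and 0.0577 and 0.0578 for Ces1e (pseudocounts of 1 and 0.1). In HFCFD12W+T10W, library totals gave 0.128 for Ces1b and 0.00613 for Ces1c, and the TPM fits 0.148 and 0.153 for Ces1b and 0.0121 and 0.0121 for Ces1c. For HFCFD8W+T10D minus HFCFD2W, the block gave 0.0328 for Ces1f and -0.0315 for Ces2c. For HFCFD12W+T10W minus HFCFD8W+T10D, Ces3a came to 0.0515 with upper-quartile scaling and 0.0221 with the block. In control livers, HFCFD8W+T10D minus HFCFD2W, Ces1f was 0.0214 with upper-quartile scaling. With 1 mouse left out, the values that crossed 0 ran from -0.16 to 0.0553 for Ces1b and from -0.171 to 0.1002 for Ces1e in HFCFD2W, and from -0.33 to 0.0779 for Ces1f (HFCFD8W+T10D minus HFCFD2W) and -0.166 to 0.171 for Ces3a (HFCFD12W+T10W minus HFCFD8W+T10D). In control livers they ran from -0.00337 to 0.0960 for Ces1c, -0.146 to 0.0314 for Ces1f and -0.233 to 0.00447 for Ces1g (HFCFD8W+T10D minus HFCFD2W), and from -0.00327 to 0.132 for Ces1c and -0.125 to 0.0833 for Ces1d (HFCFD12W+T10W minus HFCFD8W+T10D).

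Correlations of deviations between same-numbered mice of the 2 genotypes ran from -0.347 to 0.207. In HFCFD2W control mouse 1 and knockout mouse 6 had no same-numbered partner, so the block fit took no genotype difference from them. So few pairs cannot show whether the numbers pair mice, and calls lost under the block are uncertain to that extent. These were Ces1d and Ces1f in HFCFD2W. Among differences of genotype effect they were Ces3a and Ces3b (HFCFD8W+T10D minus HFCFD2W), Ces1g and Ces2a (HFCFD12W+T10W minus HFCFD8W+T10D) and Ces1c (HFCFD12W+T10W minus HFCFD2W). Depth limited Ces3b most, at 75 counts in its lowest library.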
